A study of Mus musculus with 4 samples.

Results

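Binding of SMAD4 was examined at 9 genes listed as inhibitory receptors of macrophages: *Cd200r1*, *Cd200r4*, *Sirpa*, *Cd47*, *Lair1*, *Pilra*, *Pirb*, *Cd300a* and *Cd300lf*. Of these, *Cd47* encodes a ligand of such a receptor, and *Cd200r4* is not an inhibitory receptor by its tail. The members were fixed by name and not by a threshold on any value, but with earlier results of these data known. They are 9 of 20923 protein-coding genes with a curated RefSeq transcript. A SMAD4 peak was assigned to a gene when its summit, the position of most fragments, lay in the gene body or within 50 kb of a transcription start site (TSS) of the gene. By this rule the 9 genes held 46 of the 16369 peaks of replicate 1 and 60 of the 19015 peaks of replicate 2. Where peaks of replicate 1 and replicate 2 overlapped, by 1 bp or more, they were joined, which gave 42 distinct shared regions, of 10964 shared regions in the genome.

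The cells studied were alveolar macrophages (AMs), which live in the airspaces of the lung and clear them, sorted after bronchoalveolar lavage from wild-type C57BL/6J mice that were 9 weeks old according to the methods of the study. Chromatin was immunoprecipitated with SMAD4 antibodies by HT-ChIPmentation, in which the transposase Tn5 inserts the sequencing adapters into chromatin held on the beads. There were 2 SMAD4 libraries and 2 input libraries, all of the same genotype and without treatment, so the data hold no comparison between conditions. It is not stated whether the libraries came from separate animals, and the spread between them may be technical.

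SMAD4 is the partner that the receptor-activated SMAD proteins share when TGFβ signals reach the nucleus, and AMs depend on TGFβ in the alveolus. Inhibitory receptors are a brake on macrophage activation: when a ligand is bound, tyrosine motifs in the receptor tail recruit the phosphatases SHP-1, SHP-2 or SHIP1, or adaptors of the Dok family, and signals of activating receptors are weakened. In the lung, where macrophages meet inhaled particles and dying cells all the time, CD200 on the epithelium, surfactant proteins, collagen and lipids of apoptotic cells are known ligands of such receptors. Many of these receptors have a nearly identical neighbour with a short tail that pairs with the adaptors DAP12 or FcRγ and activates instead.

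The sequences around 7 summits are shown first, since these regions carry the largest fold of replicate 1 at their gene outside exons, the promoter site of *Cd300lf*, or, at *Lair1*, the only shared site. None is shown for *Cd200r1* and *Cd200r4*, whose strongest site lies in an exon, although weaker sites of this locus lie outside exons. Each is the plus strand of mm10, 5′ to 3′, within 100 bp of the mean summit of both replicates. Capitals mark matches, on either strand, to the letters GTCTG (a SMAD element), TTGCNNAA (C/EBP), GAGGAAGT (PU.1), AGGAAG (the core of ETS family sites, also contained in the PU.1 letters), TGANTCA (AP-1) or TGTGGT (RUNX). The *Cd300a* window is chr11:114907710-114907910, the *Cd300lf* promoter window chr11:115134396-115134596, the distal *Cd47* window chr16:49836878-49837078, the distal *Sirpa* window chr2:129570818-129571018 and the *Pilra* window chr5:137820844-137821044. The *Pirb* window was cut at the last base of the gene, at chr7:3712379-3712504, and the *Lair1* window is chr7:4064136-4064336.
Cd300a: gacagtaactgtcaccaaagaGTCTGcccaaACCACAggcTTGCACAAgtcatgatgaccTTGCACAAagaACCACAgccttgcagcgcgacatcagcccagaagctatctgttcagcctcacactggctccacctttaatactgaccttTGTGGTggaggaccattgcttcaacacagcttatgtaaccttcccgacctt
Cd300lf: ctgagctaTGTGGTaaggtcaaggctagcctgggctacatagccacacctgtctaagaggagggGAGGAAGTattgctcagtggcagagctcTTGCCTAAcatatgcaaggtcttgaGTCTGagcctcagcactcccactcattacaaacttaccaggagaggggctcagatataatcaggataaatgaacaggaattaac
Cd47: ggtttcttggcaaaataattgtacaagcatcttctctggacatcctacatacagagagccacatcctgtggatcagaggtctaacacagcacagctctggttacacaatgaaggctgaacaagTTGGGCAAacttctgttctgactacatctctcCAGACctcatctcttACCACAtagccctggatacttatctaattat
Sirpa: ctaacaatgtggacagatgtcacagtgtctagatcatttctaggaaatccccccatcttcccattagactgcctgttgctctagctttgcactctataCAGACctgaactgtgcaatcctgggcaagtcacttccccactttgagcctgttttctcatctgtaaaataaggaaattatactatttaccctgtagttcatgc
Pilra: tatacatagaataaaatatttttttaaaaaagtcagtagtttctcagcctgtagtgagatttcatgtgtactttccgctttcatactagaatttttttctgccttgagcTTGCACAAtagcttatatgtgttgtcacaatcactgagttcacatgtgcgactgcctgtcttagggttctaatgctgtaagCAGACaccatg
Pirb: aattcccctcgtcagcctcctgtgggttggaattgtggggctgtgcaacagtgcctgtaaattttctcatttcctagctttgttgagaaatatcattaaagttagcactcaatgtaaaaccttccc
Lair1: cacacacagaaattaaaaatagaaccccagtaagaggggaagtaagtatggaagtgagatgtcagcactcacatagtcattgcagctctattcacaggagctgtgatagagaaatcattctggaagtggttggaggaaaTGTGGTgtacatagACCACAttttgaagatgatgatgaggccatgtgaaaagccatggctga

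The *Cd300a* window held 2 copies of the C/EBP word TTGCACAA, whose first bases lay at −60 and −40 bp from the summit in genome direction, with RUNX letters at −69, −29 and 50 bp and the SMAD letters at −79 bp. The same C/EBP word stood at 9 bp in the *Pilra* window. In the *Cd300lf* promoter window the PU.1, C/EBP and SMAD letters followed each other at −36, −8 and 17 bp. The *Cd47* window held the C/EBP, SMAD and RUNX letters at 23, 55 and 70 bp. The *Sirpa* window held the SMAD letters at −2 bp, and the *Lair1* window 2 RUNX matches. None of the marked letters occurred in the stretch shown for *Pirb*.

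All 9 genes had at least 1 shared region, beside 39.1% of all protein-coding genes by the same rule. The list was drawn up with earlier results of these data known, so this contrast and the next ones are description only. At each of the 9, at least 1 shared region lay nearer to a TSS of that gene than to any other TSS, which held for 20% of all protein-coding genes. The members had a median of 6 shared regions and protein-coding genes a median of 0 (mean 0.829, highest 18). *Sirpa* had the most with 8, followed by *Cd200r1* with 7, *Cd47*, *Pilra* and *Cd300a* with 6 each, *Cd200r4* and *Cd300lf* with 5 each, *Pirb* with 3 and *Lair1* with 1. This order depended on the window: within 20 kb *Cd47* led with 6, before *Cd200r1* with 5, *Cd300a* with 4 and *Sirpa* with 3, and *Cd200r4* fell to 1. Within 100 kb *Cd47* had 12 and *Cd300lf* 11, beside 8 at *Sirpa*. By nearest TSS *Sirpa* and *Cd47* had 6 each. At least as many as at *Sirpa* were found at 0.607% of protein-coding genes, at least as many as at *Cd300a* at 1.97%, and at least as many as at *Pirb* at 10.3%. The windows searched were 100 to 107 kb long at the members, and their median length over all protein-coding genes was 100 kb. The windows of *Cd200r1* and *Cd200r4*, neighbours on chromosome 16, overlapped and had 5 regions in common, so these genes were not independent of each other.

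**Figure D1:**
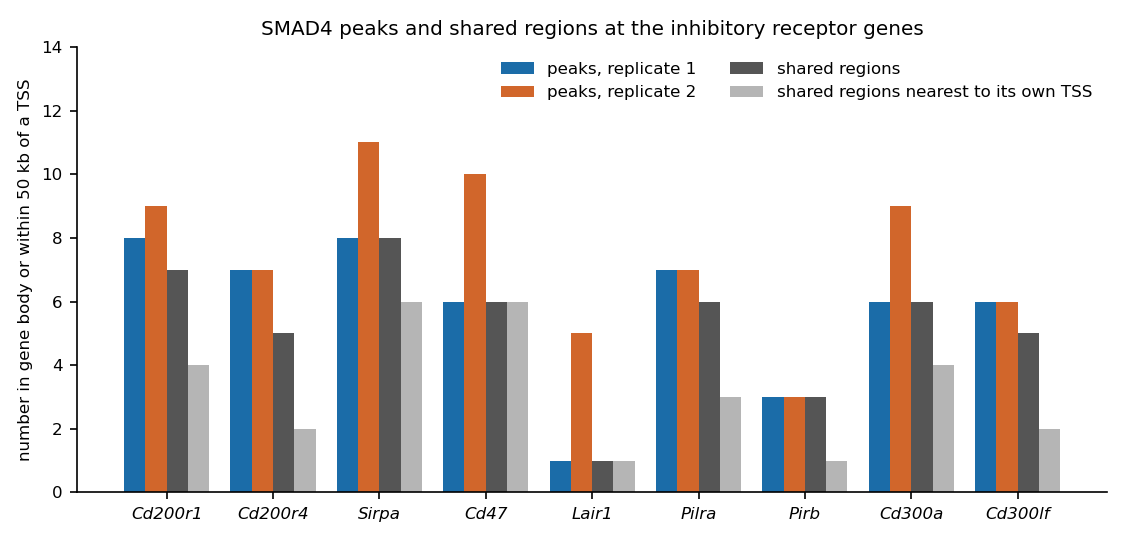
Number of SMAD4 peaks in each replicate, of shared regions, and of shared regions whose nearest TSS belongs to the gene itself, for each of the 9 genes (bars, counted in the gene body or within 50 kb of a TSS). *Sirpa* has the most shared regions with this window (8), and *Lair1* has 1 shared region beside 5 peaks in replicate 2.

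Of the member peaks, 42 of 46 in replicate 1 (91.3%, exact 95% interval 79.2% to 97.6%) and 43 of 60 in replicate 2 (71.7%, 58.6% to 82.5%) overlapped a peak of the other list. Over all peaks these shares were 69.4% and 59.2%. The intervals cover counting error only. The unshared member peaks had a low median fold, like unshared peaks in general. Their median fold enrichment was 4.55 in replicate 1 and 5.41 in replicate 2, beside 4.52 and 5.41 over all unshared peaks. The lowest values at the members were 3.90 and 3.51, and none was above 5.20 and 9.48. In replicate 2, unshared peaks at *Pilra* (9.48), *Cd300a* (8.57), *Cd47* (7.67) and *Cd200r1* (7.22) were above the median fold of that list, 6.77. Fold enrichment is the number of fragments at the summit plus 1 over the control level plus 1. The genome-wide control level was 2.08 fragments in replicate 1 and 1.22 in replicate 2, so that equal fragment numbers gave a higher fold in replicate 2.

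The fold of the 42 shared regions ran from 3.88 to 30.1 in replicate 1 (median 8.29) and from 4.51 to 40.2 in replicate 2 (median 11.1). The medians over all shared regions were 6.82 and 9.48. Behind these folds stood 12 to 103 fragments in replicate 1 and 9 to 95 in replicate 2. Fold was higher in replicate 2 at 38 of the 42 regions (90.5%), beside 87.2% of all shared regions. The rank of fold was alike in both replicates (Spearman's rho = 0.934 across the 42 regions, 0.782 across all shared regions). Both sets of regions come from the same libraries. At 33 regions (78.6%, beside 78.0% of all shared regions) the summits of both replicates lay within 100 bp of each other. In the top 10% of their own list by fold were 12 of the 42 regions in replicate 1 and 13 in replicate 2, or 28.6% and 31.0%, beside 15.1% and 17.1% of all shared regions. Above the median of their list were 85.7% of the 42 regions in replicate 1, beside 71.5% of all shared regions, but in replicate 2 the share was lower at the members, 69.0% beside 73.7%.

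**Figure D2:**
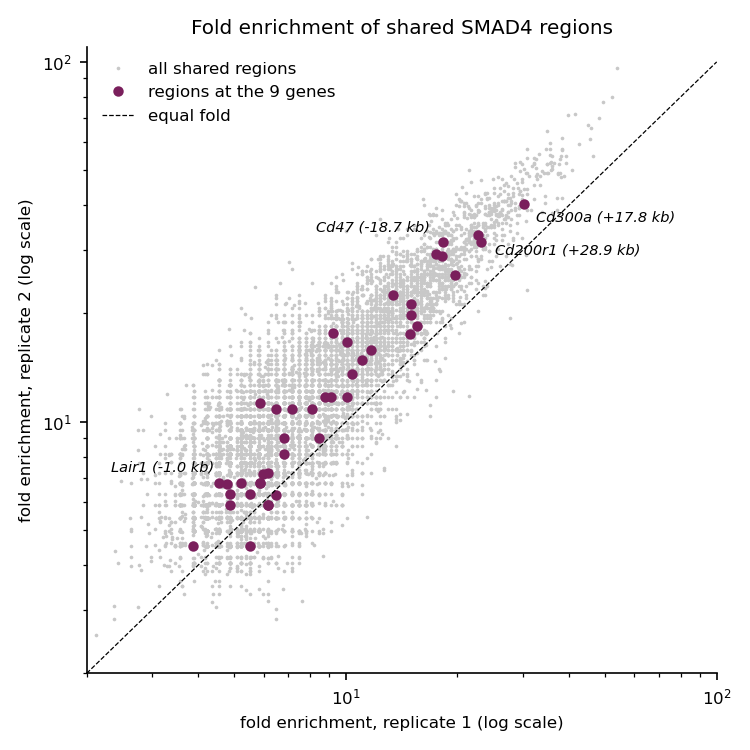
Fold enrichment of each shared region in replicate 1 (x axis) and replicate 2 (y axis), both on log scales. Grey points are all 10964 shared regions, purple points the 42 regions at the 9 genes, and the dashed line marks equal fold. The strongest purple point is the *Cd300a* region (30.1 and 40.2), and the *Lair1* region lies near the low end (4.77 and 6.70).

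*Sirpa* encodes SIRPα, which binds CD47 on other cells and surfactant proteins A and D, and inhibits phagocytosis through SHP-1 and SHP-2. The gene spans chr2:129592839-129632228 on the plus strand and has 3 curated TSSs. Its strongest region, chr2:129591719-129592593, lay in the promoter, with the mean summit at −0.728 kb from the nearest TSS (negative distances are upstream). It had a fold of 22.7 in replicate 1 and 32.9 in replicate 2, from 69 and 72 fragments. Next came a distal region at −21.9 kb (19.7 and 25.6) and a region at 37.8 kb, just past the end of the gene (14.9 and 21.2). Thus a promoter site and sites on both sides of the gene were among the strongest 10% of both lists. Weaker regions stood at −20.2 kb (4.55 and 6.77) and in introns at 0.314 kb (6.50 and 10.8) and 5.71 kb (6.17 and 5.87) from a TSS. The other 2 regions, at −45.8 kb (10.4 and 13.5) and −34.1 kb (14.9 and 17.6), were nearer to the TSS of *F830045P16Rik*. In the promoter window the C/EBP letters occurred at −41 and −17 bp from the summit. Its sequence is not shown because a predicted exon covers it.

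*Cd47* encodes the ligand of SIRPα, the "don't eat me" signal that most cells carry. The gene lies at chr16:49855654-49912428 on the plus strand. All 6 of its shared regions were nearest to its own TSS. A pair of strong regions lay together upstream, at −18.7 kb (chr16:49836561-49837470, fold 18.2 and 31.6) and −15.5 kb (chr16:49839611-49840861, 17.5 and 29.3). A weaker one stood between them at −16.5 kb (5.85 and 6.77). The promoter region, chr16:49854513-49855302, had a fold of 13.4 and 22.6 with its summit at −0.674 kb, and its 201 bp window held the SMAD letters 3 times, at −77, −12 and 6 bp. In the gene, the first intron held a region at 3.20 kb (9.25 and 17.6) and a later intron one at 32.9 kb (5.96 and 7.15). The receptor gene and the ligand gene therefore both carried a promoter region and distal regions. At −18.7 kb and 32.9 kb the control level was raised to 4.70 fragments in replicate 1 and to 1.85 and 2.78 in replicate 2, which lowers the fold at equal fragment numbers. The region at −18.7 kb had 103 and 89 fragments, more in replicate 1 than any other region at the 9 genes. Replicate 2 alone had further peaks at −2.49, 51.7 and 55.1 kb, with folds of 5.87, 5.41 and 7.67. Those at 51.7 and 55.1 kb lay in an intron of *Cd47* but were nearest to the TSS of *Gm19723*.

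*Cd200r1* encodes the receptor of CD200 and inhibits macrophages through Dok adaptors. *Cd200r4* encodes a relative that is known to pair with DAP12 and is not an inhibitory receptor by its tail, although it was listed among the members. *Cd200r1* lies at chr16:44765736-44794977 and *Cd200r4* at chr16:44820728-44839150, both on the plus strand. The strongest region of the locus, chr16:44794067-44795022, had a fold of 23.1 in replicate 1 and 31.6 in replicate 2, from 70 and 69 fragments. Its summit fell in the last exon of *Cd200r1*, exon 7, behind the coding sequence and thus in the 3′ untranslated region. It was nearer to the TSS of *Cd200r4*, at −26.1 kb, than to that of *Cd200r1*, at 28.9 kb. Another region between the genes, chr16:44811289-44812055, lay at −8.99 kb from *Cd200r4* and had 10.1 and 11.7. The 3 regions in the first intron of *Cd200r1*, at 7.08, 8.03 and 13.2 kb, were weaker (5.52 and 4.51, 8.45 and 9.02, 6.17 and 5.87). Upstream of *Cd200r1* there was a region at −7.85 kb (7.15 and 10.8) and one at −39.6 kb (5.85 and 11.3), the latter in an intron of *Nepro*. Neither gene had a shared region in its promoter, and the body of *Cd200r4* held none. A single peak of replicate 1 lay there, in an intron at 14.6 kb, with a fold of 4.22.

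*Cd300a* and *Cd300lf* encode receptors of the CD300 family that recognise lipids exposed on dying cells and carry inhibitory motifs. The region of largest fold at any of the 9 genes was found 17.8 kb from the *Cd300a* TSS, past the end of the gene, at chr11:114907230-114908337. Its fold was 30.1 in replicate 1 and 40.2 in replicate 2, from 100 fragments (exact Poisson 95% interval 81.4 to 122) and 95 (76.9 to 116). These values put it in percentiles 99.5 and 99.3 of the lists. In both replicates it exceeded the strongest *Sirpa* region (69 and 72 fragments, with intervals of 53.7 to 87.3 and 56.3 to 90.7), although the intervals of the fragment numbers overlapped. By fragments it did not lead in replicate 1: the *Cd47* region at −18.7 kb had 103 there and 89 in replicate 2. In replicate 1 the control level was 4.70 at that *Cd47* region and 2.35 at the *Cd300a* region. The site is intergenic, between *Cd300a* and *Cd300lb*, an activating relative. The other *Cd300a* regions had folds of 4.87 to 8.77 in replicate 1 and 5.87 to 11.7 in replicate 2. They lay at −10.2, −5.09, 8.24, 23.2 and 41.2 kb, and the last pair was nearest to the TSS of *Cd300lb*. No region fell in the *Cd300a* promoter.

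*Cd300lf* lies at chr11:115116214-115133992 on the minus strand, inside the span of a longer *Rab37* transcript of the opposite strand. Its promoter region, chr11:115133883-115134785, had its summit at −0.504 kb and folds of 11.0 and 14.9, from 33 and 32 fragments. A region of larger fold, chr11:115110217-115110910 (15.6 and 18.5), lay 23.5 kb from the *Cd300lf* TSS in an intron of *Rab37*. Together with regions at 24.8 kb (9.10 and 11.7) and 28.7 kb (5.85 and 6.77) it was nearest to a *Rab37* TSS. Inside the gene, one intronic region at 14.4 kb had 5.20 and 6.77. The locus thus held a promoter site of its own and a group of sites beyond its 3′ end that proximity gives to another gene.

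*Pilra* encodes an inhibitory receptor for sialylated proteins that is paired with the activating receptors of *Pilrb1* and *Pilrb2*. It spans chr5:137821952-137836278 on the minus strand. Its own regions stood in introns at 7.38 kb (fold 10.1 and 16.7) and 11.1 kb (8.12 and 10.9) and at 15.3 kb (11.7 and 15.8), just past its end in an intron of *Zcwpw1*. Those 3 were nearest to its TSS. A further 3 of its 6 regions were nearest to others: 1 in the promoter of *Pilrb1* (5.52 and 6.32), 1 upstream of *Pilrb2* (6.50 and 6.28) and 1 in *Zcwpw1* (3.88 and 4.51). *Pilra* had no region in its own promoter. The activating and the inhibitory genes of this locus lie so close that 50 kb windows did not separate them.

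*Pirb* encodes a receptor for MHC class I molecules that restrains myeloid cells through SHP-1. The gene, chr7:3712505-3720382 on the minus strand, had 3 peaks in each replicate, and all of them were shared. The strongest region, chr7:3712041-3712738, spanned the 3′ end of the gene with its summit 7.90 kb from the TSS, just past the last exon. Its fold was 18.2 in replicate 1 and 28.9 in replicate 2, from 55 and 63 fragments. Regions at 10.4 kb (14.9 and 19.9) and 13.1 kb (6.82 and 8.12) followed in the direction of *Rps9*, whose TSS was nearest to both. All 3 sites thus lay on the 3′ side of *Pirb*, and none in the promoter or upstream of it.

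*Lair1* encodes a receptor for collagen and stood apart by the low number and fold of its sites. The gene covers chr7:4007073-4063204 on the minus strand. The only shared region, chr7:4064176-4064305, was 130 bp long, the shortest of the 42, and lay at −1.03 kb, just outside the promoter limit of 1 kb. Its fold was 4.77 in replicate 1 and 6.70 in replicate 2, from 15 fragments in each (interval 8.40 to 24.7). These folds are in percentiles 31.7 and 47.6 of the lists. Replicate 2 alone had 4 more peaks: 1 in the promoter at −0.823 kb (fold 3.86) and 3 at −17.5, −19.8 and −24.4 kb in an intron of *9430041J12Rik* (5.41, 5.61 and 4.96). With a minimum fold of 5 in both lists *Lair1* had no shared region, and it was the only member that lost its last one. The lower shared count at *Lair1* was not tested against the other members.

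**Figure D3:**
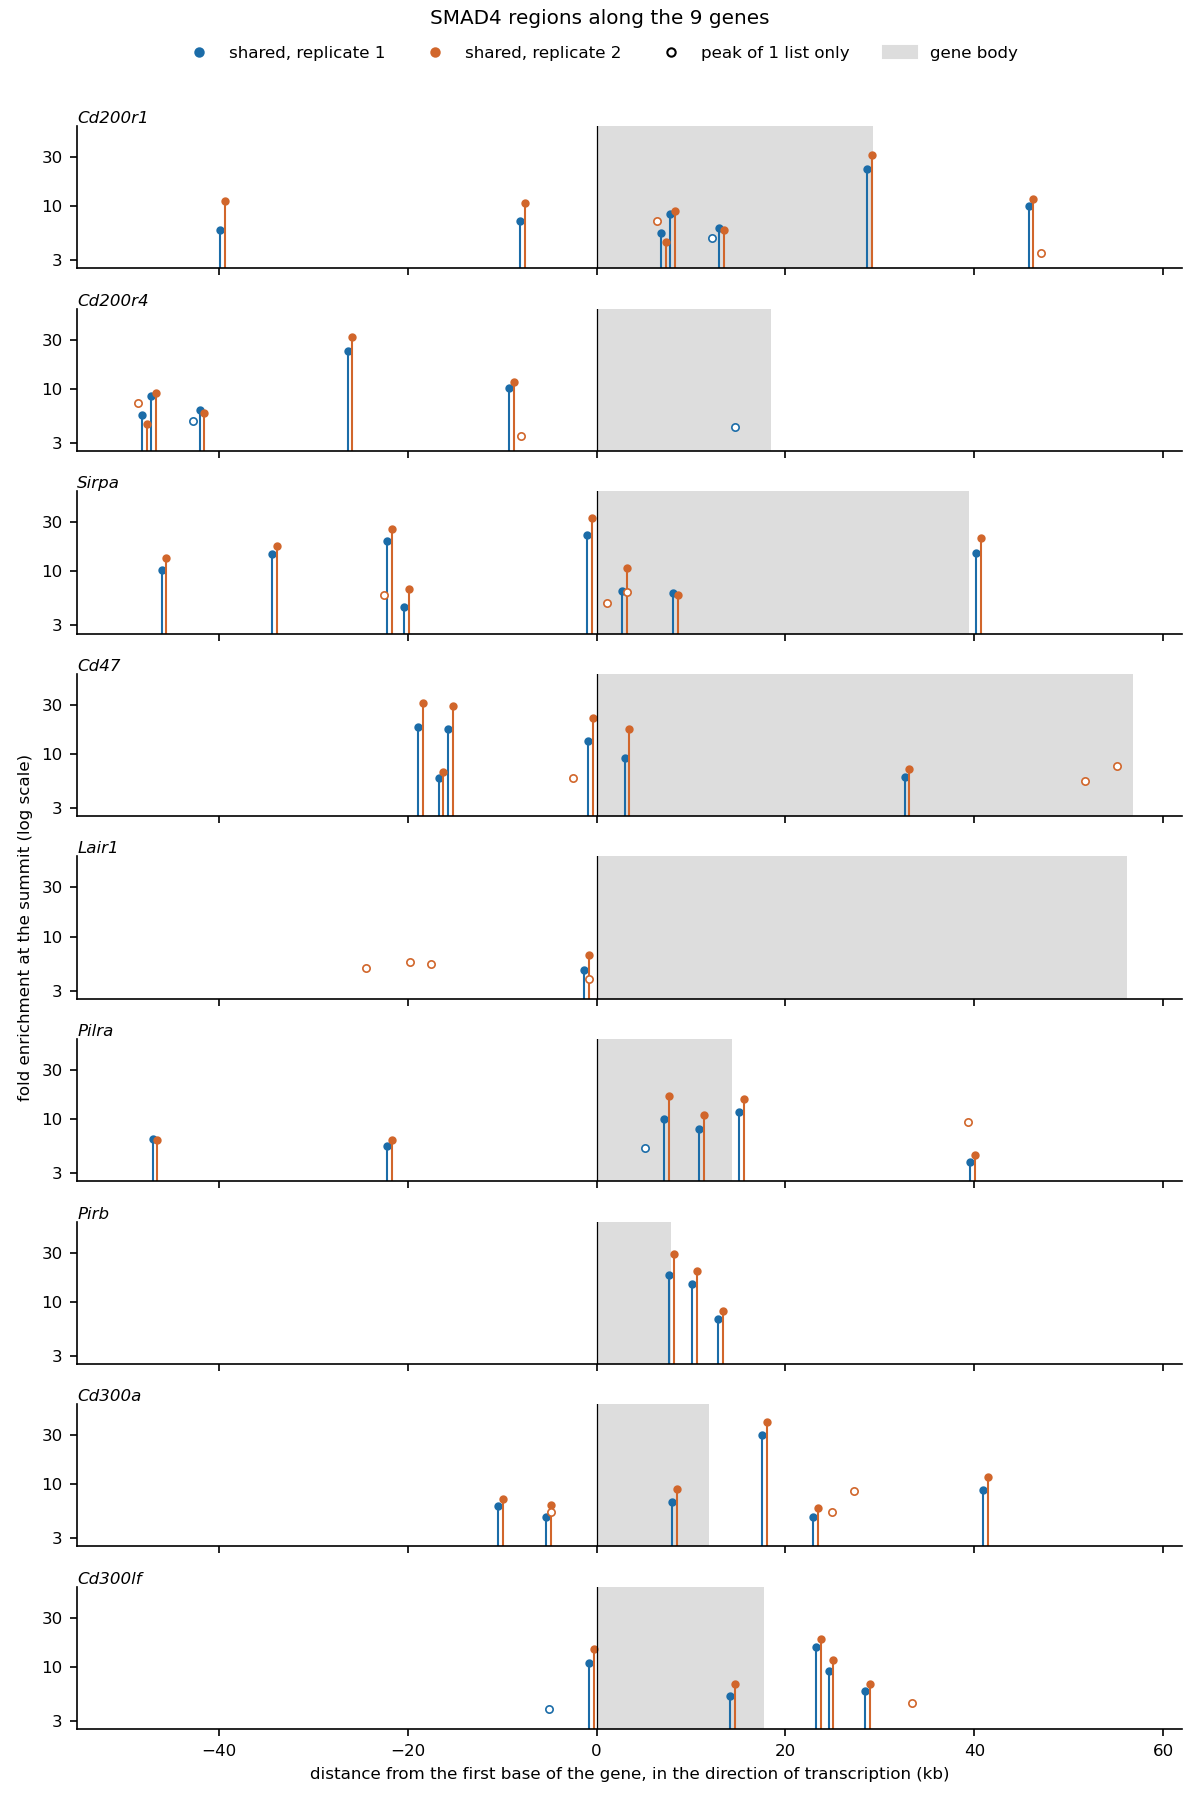
Fold enrichment (log scale) of shared regions and of peaks found in 1 list only, against the distance in kb from the first base of each gene, in the direction of transcription. Grey areas are gene bodies, filled points with stems are shared regions (blue, replicate 1, and orange, replicate 2, drawn slightly apart at the same mean summit), and open points are unshared peaks. *Sirpa*, *Cd47* and *Cd300lf* have a shared region at the start of the gene, while at *Pirb* and *Cd300a* the highest points lie past the gene end.

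By the highest fold among the shared regions of each gene, the order in replicate 1 was *Cd300a* (30.1), the region common to *Cd200r1* and *Cd200r4* (23.1), *Sirpa* (22.7), *Cd47* (18.2), *Pirb* (18.2), *Cd300lf* (15.6), *Pilra* (11.7) and *Lair1* (4.77). In replicate 2 *Sirpa* (32.9) came before the *Cd200r1* region (31.6), and the remaining order was kept. Within each list *Cd200r1* and *Sirpa* stood above *Pirb*. With 2 libraries no test of these differences was made.

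Of the 42 regions, 4 lay in a promoter, taken from 1 kb before to 100 bp after a TSS: those of *Sirpa*, *Cd47*, *Cd300lf* and the neighbour *Pilrb1*. Thus 3 of the 9 members had a promoter region, beside 3.10% of protein-coding genes. There were 18 regions in introns (42.9%), 17 in intergenic sequence (40.5%), 2 within 1 kb past a gene end and 1 in an exon. Over all shared regions 49.3% were intronic, 40.5% intergenic and 6.42% in promoters. A member TSS was the nearest TSS at 29 of the 42 regions. The remaining 13 were nearest to *Rab37* (3 regions), *Cd300lb*, *F830045P16Rik* and *Rps9* (2 each) or *Nepro*, *Pilrb1*, *Pilrb2* and *Zcwpw1* (1 each). Which gene a region acts on is not measured by these data.

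Since several members have near-identical relatives, and reads of low mapping quality were removed, the share of 32-base words that occur once on the reference chromosomes was counted in each window. It was 42.9% for *Pirb*, 64.9% for *Pilra*, 73.9% for *Lair1* and 75.2% for *Cd200r4*, and 91.6% to 95.3% for the other 5 genes. In the body of *Lair1* it was 57.5%. *Pirb* (3 shared regions) and *Lair1* (1) thus had a low share of unique sequence, but so did *Pilra* (6) and *Cd200r4* (5). The part of unique sequence in these counts was not tested. The regions found were mostly unique: all words were unique in 25 of 42 and over 90% in 37. The region in the promoter of *Pilrb1* was lowest with 27.3%, and where else its fragments could map was not tested.

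Of 12 sets of letters searched within 100 bp of the 42 summits, on both strands, C/EBP (TTGCNNAA) was found in 18 windows, ETS core (AGGAAG) and RUNX (TGTGGT) in 16 each and SMAD (GTCTG) in 15. Windows of the same length 1 kb to either side served as flanks. Flanks that covered the summit of another region were kept. This was so for the *Cd47* regions at −16.5 and −15.5 kb and the *Cd200r1* regions at 7.08 and 8.03 kb. C/EBP letters were in 42.9% of member windows and 9.52% of the 84 member flanks, close to the 40.8% of all shared windows and 8.76% of all flanks. RUNX letters were in 38.1% of member windows and 17.9% of flanks (all shared, 26.4% and 15.4%), and ETS core letters in 38.1% and 26.2% (41.4% and 23.3%). The SMAD letters, by contrast, were not more frequent at the member summits than beside them: they occurred in 35.7% of member windows and 50% of member flanks (38.8% and 36.9% over all shared regions). AP-1 letters (TGANTCA) were in 6 windows (14.3%), the nuclear receptor element (AGGTCA) in 5, STAT5 (TTCNNNGAA) in 3 and PU.1 (GAGGAAGT) in 2. Of all shared windows, 12.3%, 15.4%, 8.07% and 8.01% held these letters, in the same order. The E-box (CACGTG) and GC-rich SMAD letters (GGCGC) were in 1 window each, and in 3.65% and 5.24% of all shared windows. Neither the SMAD palindrome (GTCTAGAC) nor the RBPJ letters (GTGGGAA) occurred in any member window. They were rare over all shared windows as well, at 0.465% and 4.14%. A match of letters is not a binding site, and no test was made of these shares.

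**Figure D4:**
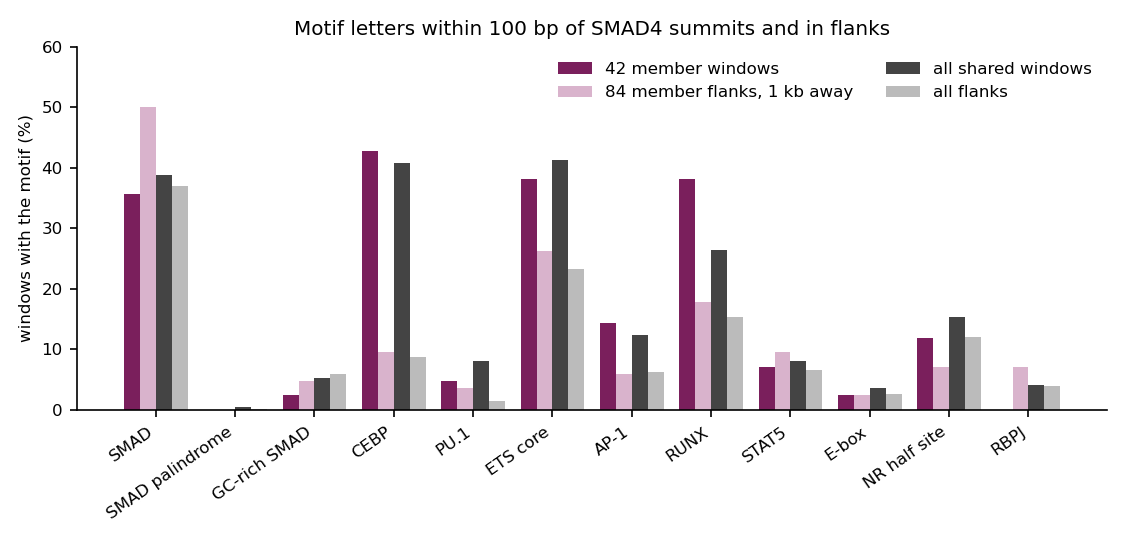
Share of windows (percent) holding each set of letters, within 100 bp of the summit of the 42 regions at the 9 genes, in their 84 flanks centred 1 kb away, and in the windows and flanks of all shared regions. C/EBP letters are in 42.9% of member windows and 9.52% of their flanks, and SMAD letters in 35.7% and 50%.

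Other genes of the pathway were counted by the same rule, by which 39.1% of all protein-coding genes had a shared region. Of 9 ligand genes, 2 had a shared region: *Cd200* and *H2-D1* had 3 each. The highest folds in replicate 1 and 2, which need not be of the same region, were 13.0 and 21.7 at *Cd200* and 9.42 and 14.4 at *H2-D1*, and are given likewise for the next genes. No peak of either list was found at *Thbs1*, *Sftpa1*, *Sftpd*, *C1qa* or *H2-K1*. The *H2-D1* regions were all nearest to other genes. Of 7 genes for signalling effectors, 5 had a shared region, led by *Inpp5d* (SHIP1) with 3 (6.50 and 9.02) and *Dok1* with 2 (5.97 and 13.0). *Ptpn6* (SHP-1) also had 2 (8.12 and 10.4), both nearest to another TSS, and *Ptpn11* (SHP-2) had no peak. Among the activating counterparts and adaptors, 13 of 15 genes matched in the annotation had a shared region, with a median of 3. *Cd300e* had 7 (17.9 and 28.0) and *Cd200r3* 6 (28.3 and 44.7), beside 23.1 and 31.6 at *Cd200r1*. Of the 13, 5 genes, *Pilrb1*, *Pilrb2*, *Cd300lb*, *Cd300e* and *Pira1*, shared regions with a member window, and their counts are not separate evidence. *Pira2* was the only gene of this list without any peak.

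**Figure D5:**
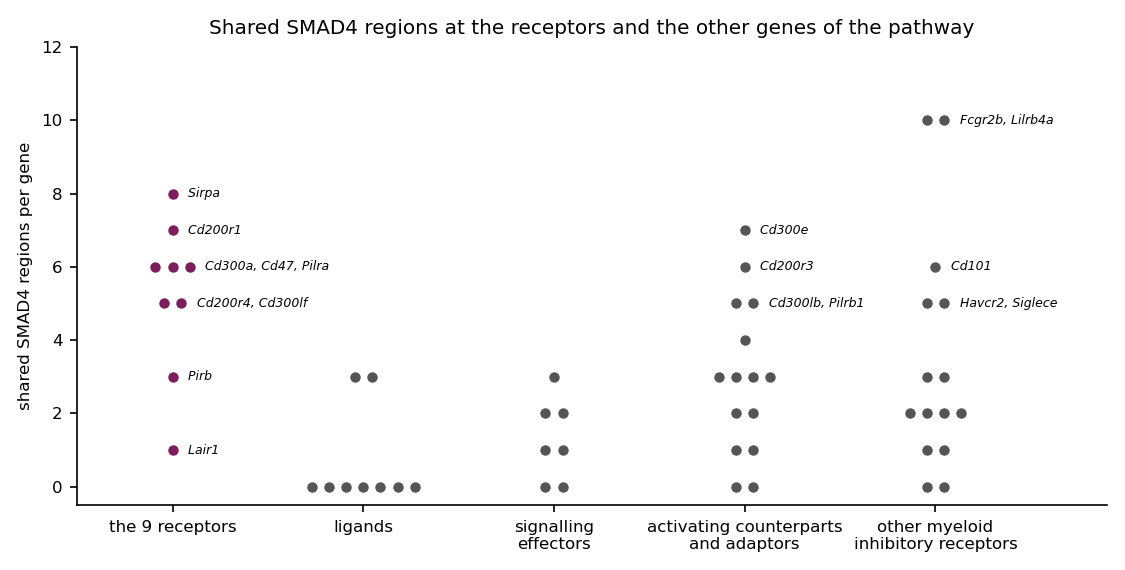
Shared SMAD4 regions per gene (y axis, count) for the 9 genes (labelled the 9 receptors, although *Cd47* encodes a ligand) and the other gene lists of the pathway. Each point is a gene. The 9 genes range from 1 to 8, 7 of 9 ligand genes are at 0, and *Fcgr2b* and *Lilrb4a* among the other inhibitory receptors have 10 each.

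Marker genes were used to check the labelled cell type. All 8 AM markers, among them *Siglecf*, *Pparg* and *Car4*, had a shared region, and none of 4 alveolar type II cell markers had a peak. Shared regions were also found at 3 of 5 neutrophil, 1 of 4 T cell, 1 of 3 B cell and 2 of 3 endothelial markers, beside the 39.1% of all protein-coding genes. The neutrophil markers *S100a8* and *S100a9* are neighbours whose windows overlap and whose highest folds are the same (13.6 and 30.7), so their counts are not separate from each other. Binding near a gene is no measure of its expression, and whether other cells contributed to the regions at the receptors was not tested.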

How the data were processed

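HT-ChIPmentation libraries of SMAD4 from AMs (n = 2) and input libraries (n = 2) were described in the labels, and the peaks of both SMAD4 libraries were used here. Per the submitters' processing notes and the methods of the study, reads were trimmed with cutadapt, aligned to mm10 with Bowtie2, freed of duplicates, filtered for mapping quality with SAMtools, and peaks were called by MACS3 in each library separately, with input as control and a q-value limit of 0.05. For each peak the authors deposited a fold ratio at the summit, −log10 p and −log10 q values, and a score, which was not used. Fold and p were solved for the number of fragments and the control level at the summit. These numbers are the only measure of depth used here, and the precision given covers counting error. The study also provides quality data of its sequencing, which were not used for these results. The labels and the methods name different suppliers of the antibodies.

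Both lists were joined with the curated RefSeq transcripts (NM and NR) and the sequence of GRCm38, the assembly that mm10 names. Coordinates are 1-based. Distances are from the mean of both summits to the nearest TSS of the gene. Positions were called, in this order, promoter (from 1 kb before to 100 bp after a TSS), gene end (from 100 bp before to 1 kb after), exon, intron or intergenic. Intervals of shares are exact (Clopper-Pearson) and those of fragment numbers exact Poisson intervals, at 95%. With 1 group of 2 libraries no test between conditions was possible, and none was made between genes. The members, gene lists and letters were chosen with earlier results of these data known. All members were named, with the 2 genes of most shared regions in each other list, genes without a peak where a list had up to 5, and genes whose TSS was nearest to a member region. *Pira6*, *Pira7* and *Lilrb4b* had no curated transcript under these symbols and were not analysed. Counting of regions, words and letters was tested on simulated data. Thresholds, windows, gene models and overlap rules were varied. Analyses used Python (3.11.15) and its packages pysam (0.24.0), scipy (1.17.1) and pandas (2.3.3).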

Additional observations from a re-analysis of the deposited data

How the results depend on the processing

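All 9 genes kept at least 1 shared region under every alternative except a minimum fold of 5, where 8 did and *Lair1* had none. The alternatives were stricter q limits, windows of 20 or 100 kb, nearest TSS, all RefSeq transcripts, a reciprocal overlap of 50%, and summits within 100 bp. The 100 kb window and all RefSeq transcripts give windows that contain those used, so these alternatives could not lose a region. The share of all protein-coding genes with a shared region was not counted under any alternative, so these counts have no general share beside them. The number of shared regions ranged from 28 (20 kb window) to 55 (100 kb window) around the reported 42. A single list holds no shared region, and taken alone the lists give only their peak counts, 60 in replicate 2 and 46 in replicate 1. At a reciprocal overlap of 50% the share of member peaks with a partner fell to 76.1% in replicate 1 and 58.3% in replicate 2. In a 20 kb window, 2 regions were nearest to another TSS instead of 13, by construction of the smaller window. With nearest TSS as the rule, *Cd200r1* had 4 regions, *Pilra* 3, *Cd200r4* and *Cd300lf* 2 each and *Pirb* 1. With only 50 bp to either side of a summit, the SMAD letters were in 7 of the 42 regions (16.7%) and C/EBP letters in 10 (23.8%). Of all shared windows of this size, 21.9% and 28.0% held these letters. Within 3 kb of a TSS lay 7 regions instead of 4, and the share of all shared regions was not counted with this limit. No paired analysis was possible because the result comes from no test and the design holds 1 group of 2 libraries. The shared regions of the 9 genes rest on 12 to 103 fragments in replicate 1 and 9 to 95 in replicate 2. The lists reach down to 9 and 7 fragments, with lowest folds of 1.77 and 2.14, and sites that missed the q limit of the peak calls were not seen here.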

Other observations

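Beyond the 9 genes, 13 of 15 other myeloid inhibitory receptor and checkpoint genes had a shared region, beside 39.1% of all protein-coding genes. Their median was 2, and no gene was without a peak. *Fcgr2b*, which encodes the inhibitory receptor for IgG, and *Lilrb4a*, a relative of *Pirb*, had 10 each, more than any of the 9. The highest fold at *Fcgr2b* was 18.8 in replicate 1 and 32.5 in replicate 2, and at *Lilrb4a* it was 24.7 and 27.0. At *Fcgr2b* 5 of the 10 regions and at *Lilrb4a* 6 of the 10 were nearest to the TSS of the gene. *Ceacam1* and *Cd244a* had no shared region, and a single peak each in replicate 2. No test was made of these counts, and the list was chosen with earlier results of these data known.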
